A study of Homo sapiens with 12 samples.

Results

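The 40 listed interferon-stimulated genes were followed in 3 human multiple myeloma lines, each kept alone or cultured with bone marrow stroma. The genes were listed by name, and every probe set annotated to one of them was taken. Of the 40 listed genes, 39 had a probe set named to them alone, and STAT2 was not analysed here. The 39 genes are part of 15052 genes tested. They were read by 65 probe sets, of which 63 were tested, and 19 of the genes had several.

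MM.1S is a human multiple myeloma line. MM.1R derives from it and resists dexamethasone, and growth of the INA-6 myeloma line needs interleukin 6. All 3 lines stably carried green fluorescent protein (GFP), in both conditions. The cells spent 24 hours either alone or on HS-5 cells, which are human stroma of the bone marrow and carried no GFP, and the GFP-positive cells were then separated by sorting. The 6 groups of line and condition had 2 arrays each, 12 in all, which the series text calls technical replicates, so each line is a single culture per condition as far as the labels say. Affymetrix U133 Plus 2.0 arrays give an intensity per probe set, and intensities of different probe sets cannot be set against each other.

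Interferons are secreted proteins that bind paired receptor chains, activate JAK kinases and, through STAT proteins and IRF9, switch on a broad set of antiviral genes. Type I and III interferons act through a complex of STAT proteins with IRF9, which binds the interferon-stimulated response element (ISRE), and interferon gamma acts on the gamma-activated site (GAS). The products block viral entry, degrade or sense viral RNA, tag proteins with ISG15, and feed back on the pathway itself.

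The promoters of the genes show what the listed genes share in sequence. Windows from 250 bases before to 50 bases after each RefSeq start (build GRCh38.p14) were searched on both strands for the ISRE core, GAAA followed by any 2 bases and GAAA again. It was found in 22 of the 30 measured members that have a window, against 3.57% of all 35116 windows of the same length and 4.38% of the 27305 genes they belong to. The shorter core GAAANNGA, which lies inside the first motif, was found in 23 of the 30 (20.3% of all windows and 23.9% of all genes with a window). The GAS motif TTCNNNGAA was found in 10 of the 30 (7.66% of all windows and 9.38% of those genes). A motif match is a description of the letters and not a shown binding site. IFIT2, IFITM2, LY6E, OAS2, OASL, MX2, GBP2, USP18 and IRF7 were not in the table of windows.

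The first group of sequences comes from 7 members that rose in coculture in all 3 lines, and the second from 5 members whose probe set in use passed the test in none of the lines or in INA-6 alone. Each is read 5′ to 3′ along the gene's own strand, ends at or before the start site, and has the ISRE core, on either strand, in capitals.
ISG15 (chr1:1013359-1013424, plus strand): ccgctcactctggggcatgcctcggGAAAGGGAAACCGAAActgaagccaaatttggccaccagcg
IFI6 (chr1:27672251-27672373, minus strand): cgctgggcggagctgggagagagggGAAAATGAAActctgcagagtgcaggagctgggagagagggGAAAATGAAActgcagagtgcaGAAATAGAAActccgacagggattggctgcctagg
IFITM1 (chr11:313975-314034, plus strand): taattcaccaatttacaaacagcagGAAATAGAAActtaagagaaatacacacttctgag
IFITM3 (chr11:320861-320937, minus strand): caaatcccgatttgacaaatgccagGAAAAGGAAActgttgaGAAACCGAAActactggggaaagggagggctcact
IFI27 (chr14:94110603-94110675, plus strand): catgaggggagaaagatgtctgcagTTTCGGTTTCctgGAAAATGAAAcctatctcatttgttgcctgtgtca
MX1 (chr21:41431829-41431888, plus strand): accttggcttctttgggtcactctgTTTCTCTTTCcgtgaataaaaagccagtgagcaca
PARP14 (chr3:122680785-122680838, plus strand): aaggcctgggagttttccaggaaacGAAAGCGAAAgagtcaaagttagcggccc
IFIT1 (chr10:89392482-89392554, plus strand): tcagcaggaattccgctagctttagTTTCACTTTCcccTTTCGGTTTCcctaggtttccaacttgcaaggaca
IFIT5 (chr10:89414498-89414567, plus strand): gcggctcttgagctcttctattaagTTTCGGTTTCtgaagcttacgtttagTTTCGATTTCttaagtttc
OAS3 (chr12:112938306-112938473, plus strand): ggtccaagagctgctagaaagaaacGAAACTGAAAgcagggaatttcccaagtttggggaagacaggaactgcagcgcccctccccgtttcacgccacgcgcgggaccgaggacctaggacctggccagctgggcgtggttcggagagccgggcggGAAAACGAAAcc
SAMD9 (chr7:93118081-93118140, minus strand): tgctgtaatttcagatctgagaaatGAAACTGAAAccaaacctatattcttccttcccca
EPSTI1 (chr13:42992257-42992316, minus strand): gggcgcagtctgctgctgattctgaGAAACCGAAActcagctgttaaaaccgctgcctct
ISG15 carried 2 overlapping copies of the core on its own strand, IFI6 carried 3 and IFITM3 carried 2. Among the genes of the second group, IFIT1 carried 2 copies on the opposite strand. IFIT5 carried 3, of which 2 are printed and the other one runs across the start site. The core was present in 11 of 16 members that rose in all 3 lines and in 4 of 7 members that rose in no line. The letters of the core were thus found both in genes that rose and in genes that did not pass the test.

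Values are given as the deposited intensity on each array, first and second duplicate, and differences as log2(intensity + 5), coculture minus alone, with the standard error (SE). Over the 3 lines the duplicates were averaged and the lines were the replicates (n = 3), although MM.1R descends from MM.1S. Within a line the test sets the difference against the spread between duplicate arrays, so its p-value carries no spread between cultures. Both are limma tests whose p-values were adjusted by Benjamini-Hochberg across all 15052 genes, and "rose" or "fell" is used at an adjusted p under 0.05. Array medians lay between 19.78 and 24.09, and the sources used here give no detection calls, so a low level is stated only as below the array median.

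Several properties of the arrays moved with the groups. In INA-6 alone the 2 arrays correlated at 0.839 over all genes on the log2 scale and at 0.733 over the members, with 12 members apart by over 1 log2 unit, while the other groups lay between 0.946 and 0.986 over all genes. The summed intensity of 18 stromal markers was 1351 to 3163 on arrays of cells alone and 9219 to 20106 after coculture. The collagen chain gene COL6A2 rose most among them, from between 5.45 and 11.25 to between 1196 and 3274, a difference of 7.15, and 9 of the 18 markers rose over the 3 lines. TAGLN, an actin-binding protein of contractile stroma, had the lowest difference, -0.85 (adjusted p = 0.264). The part of HS-5 RNA in the results below was not tested, and in such bulk samples more cells of a type and more RNA per cell cannot be told apart. The 3′ over 5′ signal ratio for ACTB, a sign of RNA integrity, went from a mean of 22.4 to 5.10 in MM.1S and from 31.4 to 5.21 in MM.1R, but from 5.51 to 32.0 in INA-6, and its part was not tested. The mean signal of BioB, a control transcript added to each hybridisation, was higher alone than in coculture in each line: 1984 and 374 in MM.1S, 594 and 422 in MM.1R, and 3734 and 834 in INA-6. All 12 plasma cell markers listed were measured, and their mean summed intensity also moved with coculture. It was 15781 for MM.1S alone and 29673 after coculture, 23405 against 29677 for MM.1R, and 25967 against 20237 for INA-6. Of the 12, 8 rose and 0 fell in MM.1S, 5 rose and 0 fell in MM.1R, and 3 rose and 6 fell in INA-6. The part of this shift in the members' differences was not tested.

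In cells kept alone, some members read above the array median in every line, and the line with the highest level varied by member. In MM.1S alone 24 of the 39 members lay above the array median on both arrays, in MM.1R alone 23 and in INA-6 alone 24. The same share over all genes was not counted. The intensity filter and the choice of the highest probe set per gene favour readings above the median, so these counts do not measure interferon activity. The members below it on both arrays numbered 12 in MM.1S, 9 in MM.1R and 5 in INA-6, and IFIT2, CMPK2, IFI27 and IFI44L were among them in all 3 lines. The highest of the 3 baseline levels was in MM.1S for 12 members, in MM.1R for 13 and in INA-6 for 14. Over all genes tested those shares were 27.5%, 33.2% and 39.3%, so no line stood out as the one with the highest baseline across the members.

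INA-6 differed from the MM.1 lines at baseline in both directions, about as often as over all genes. At an unadjusted limma p under 0.05, in either direction, 59.0% of members and 60.6% of all genes differed. Against both MM.1 lines averaged, 12 members were higher in INA-6 (21.4% of all genes were) and 9 were lower (34.1% of all genes were), with a median difference of -0.01 over the members and -0.14 over all genes. All 5 membrane-bound restriction factors were among the higher ones. IFITM1, which blocks viral fusion at the cell surface, read 711 and 572 in INA-6 alone against 15.2 and 19.6 in MM.1S and 21.98 and 13.0 in MM.1R, a difference of 4.86 (SE 0.20, adjusted p = 9.65e-07). INA-6 was thus far above both MM.1 lines, whose values overlapped each other. IFITM2 and IFITM3, related factors of endosomal membranes, were higher by 3.14 and 3.09, but their probe sets can also read their close relatives. BST2, or tetherin, which holds budding virus at the membrane, read 1912 and 1550 in INA-6, 270 and 289.8 in MM.1S and 755 and 771 in MM.1R. The 3 lines did not overlap for BST2, with INA-6 highest and MM.1S lowest. LY6E, a lipid-anchored surface protein, was higher by 1.73.

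The members most strongly lower in INA-6 alone were GBP1, HERC5, IFIH1 and IRF7. GBP1, a guanylate-binding GTPase, read 22.6 and 15.0 in INA-6 alone and between 258 and 387 in the MM.1 lines alone, a difference of -3.74. HERC5, the main ligase that attaches ISG15 to proteins, read 20.7 and 41.9 in INA-6 alone against 425 to 479 in the MM.1 lines, a difference of -3.70. IFIH1, or MDA5, a sensor of long double-stranded RNA, read 23.1 and 26.8 against 328 to 359, a difference of -3.57. On the probe set in use the INA-6 arrays and the MM.1 arrays did not overlap for these 3 genes. IRF7, the factor that amplifies interferon alpha transcription, read 10.1 and 26.2 in INA-6 alone and 171 to 275 in the MM.1 lines, a difference of -3.36. IRF1 was also lower, by -1.58, as were SAMD9L, SAMD9, ISG15 and PARP14, by -1.26 to -0.43. On another tested probe set of IFIH1, SAMD9L, SAMD9 and PARP14, the arrays of cells alone overlapped between INA-6 and the MM.1 lines.

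The other 7 members higher in INA-6 alone were PARP9, USP18, OAS2, DTX3L, XAF1, MX1 and IFI27, with differences between 0.57 and 2.40. The lowest, 0.57, was that of IFI27, whose arrays of cells alone (11.3 and 9.12 in INA-6, 4.19 to 6.35 in the MM.1 lines) all lay below the array median and cannot be told from background. The duplicates of INA-6 alone were far apart for several of them. MX1 read 93.1 and 22.9, DTX3L 554 and 184, OAS2 80.0 and 243, and PARP9 258 and 554. XAF1 was higher in INA-6 on 1 of its 3 tested probe sets and did not pass with all of them averaged. On another it read 17.8 and 36.1 in INA-6 alone against 17.9 to 39.8 in the MM.1 lines alone. On the remaining one it read 8.37 and 18.2 against 12.5 to 24.4.

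MM.1R and MM.1S, which share their origin, differed in 2 members, both higher in MM.1R (7.93% of all genes were). These were BST2, higher by 1.43 (SE 0.15, adjusted p = 0.00313), and IFI35, an interferon-induced leucine zipper protein, which read 153 and 126 in MM.1R and 49.9 and 86.3 in MM.1S (1.02, SE 0.24, adjusted p = 0.0355). BST2 passed in all 21 alternative settings and IFI35 in 9. Neither gene overlapped between the lines. IFIT1 (-1.69, adjusted p = 0.281) and EPSTI1 (-1.26, adjusted p = 0.486) did not pass, and their duplicates in MM.1R alone read 17.3 and 57.8, and 4.63 and 76.9.

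**Figure D1:**
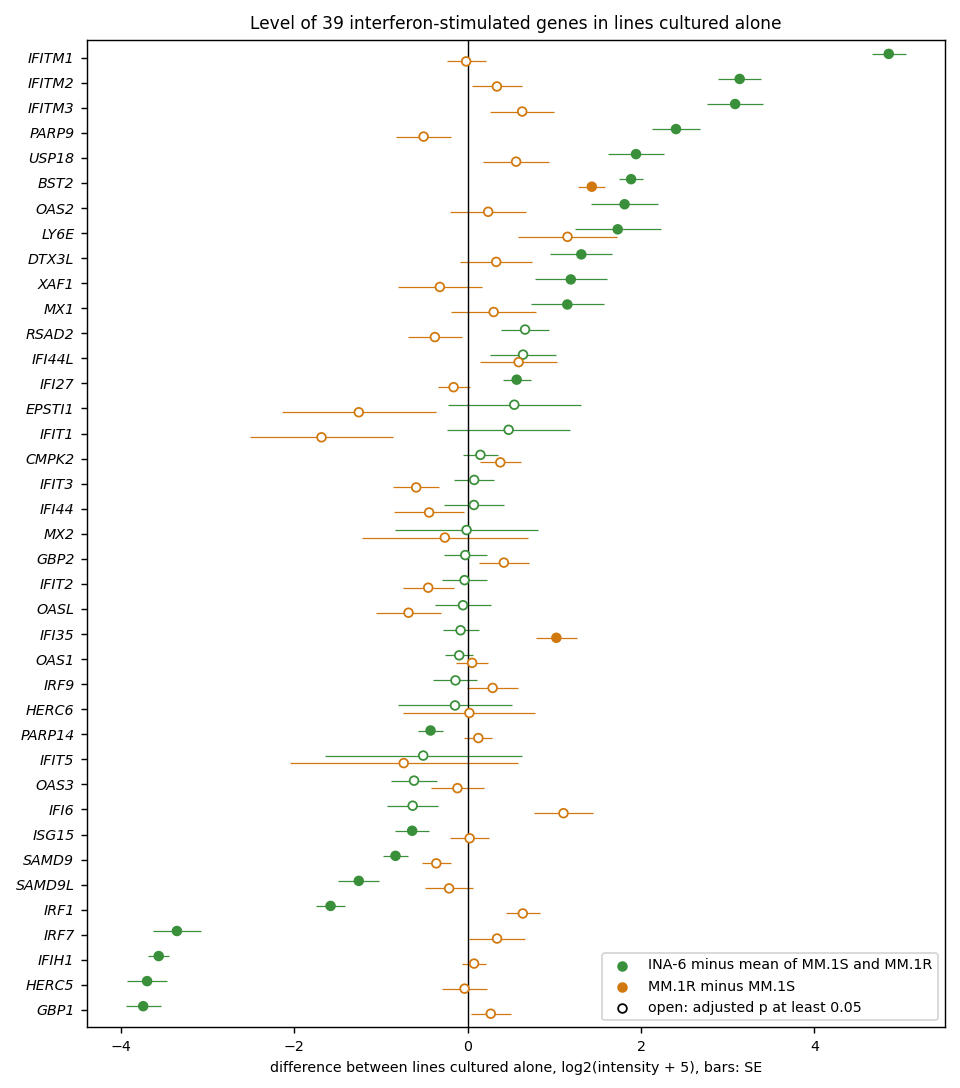
Difference between lines cultured alone for each of the 39 members (rows), on the log2(intensity + 5) scale (horizontal axis), for INA-6 less the averaged MM.1S and MM.1R levels (green) and MM.1R minus MM.1S (orange), with SE bars and filled points where the limma adjusted p is under 0.05. IFITM1 lies farthest to the right for INA-6 at 4.86 and GBP1 farthest to the left at -3.74, and the orange points pass for BST2 and IFI35.

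Most members had higher values in coculture than alone in every line. Over the 3 lines 14 of 39 members rose and 0 fell, against 3.28% of all genes that rose and 0.106% that fell, and 23 members had an unadjusted p under 0.05 (22.5% of all genes). The median difference of the members was 1.60 and that of all genes tested was 0.265. In MM.1S 24 members rose and 0 fell (23.9% and 8.33% of all genes). In MM.1R 23 rose and 0 fell (13.3% and 2.76%), and in INA-6 24 rose and 2 fell (39.1% and 13.1%). In each line the share of members that rose was above that of all genes, by the narrowest margin in INA-6. At an unadjusted p under 0.05, without regard to direction, the limma fit had 26 members in MM.1S, 25 in MM.1R and 27 in INA-6 (66.7%, 64.1% and 69.2%), against 41.5%, 27.1% and 58.3% of all genes.

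The members are listed here by how many lines they rose in. The 20 that rose in all 3 lines were IFIT2, IFIT3, IFITM1, IFITM2, IFITM3, OAS1, MX1, GBP2, ISG15, HERC5, IRF1, IRF7, IRF9, DTX3L, PARP14, CMPK2, IFI6, IFI27, IFI35 and IFI44 (7.29% of all genes rose in 3 lines). The 3 that rose in exactly 2 lines (12.3% of all genes) were BST2 and RSAD2, in MM.1S and MM.1R, and LY6E, in MM.1S and INA-6. The 5 that rose in exactly 1 line (29.9% of all genes) were IFI44L in MM.1S, PARP9 in MM.1R, and GBP1, IFIH1 and SAMD9 in INA-6. The remaining 11 rose in none. A pass in 1 line and not in another is no test of a difference between the lines. The limma F-test for this had adjusted p = 0.657 for LY6E, 0.0805 for IFI44L and 0.619 for GBP1, which did not pass. It passed for BST2, RSAD2, PARP9, IFIH1 and SAMD9. These calls use 1 probe set per gene, and other tested probe sets of GBP1, RSAD2, PARP9, IFIH1 and SAMD9 had another pattern, given below. By size alone, 18 members were at least 2-fold higher in all 3 lines (6.47% of all genes), 4 in 2 lines (9.95%), 7 in 1 line (31.4%) and 10 in none. All 18 are among the 20 above except LY6E, and HERC5, IFIT3 and IRF1 rose in all 3 lines with a difference under 2-fold in at least 1 of them.

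These calls were not equally steady. Of the 14 members called over the 3 lines, IFIT2, IFITM3, MX1, GBP2, ISG15, IFI6 and IFI27 passed in every alternative setting, and the other 7 were lost in at least 1. Among the 14, IFIT2, CMPK2 and IFI27 met the intensity filter through coculture arrays only, since every array of cells alone lay below the median. The filter thus favoured a higher coculture value for them, but all 3 also passed with no filter on low values. IFI44L, called in MM.1S, met the filter in the same way. Without the first array of INA-6 alone, IFITM1 (3.10, adjusted p = 0.0667), IRF9 (1.72, adjusted p = 0.119), OAS1 (2.11, adjusted p = 0.0675) and PARP14 (1.84, adjusted p = 0.0941) did not pass. Without the second, DTX3L (1.85, adjusted p = 0.0826), IFITM1 (2.998, adjusted p = 0.0548) and IFITM2 (3.82, adjusted p = 0.0505) did not. Under quantile normalization DTX3L, IFITM1, IFITM2, IRF9, OAS1 and PARP14 did not pass (adjusted p between 0.0911 and 0.127). With all of its tested probe sets averaged, PARP14 had 0.41 (adjusted p = 0.471). CMPK2 was lost where 20 was added before the logarithm (1.98, adjusted p = 0.0545). Within lines, 19 of the 24 calls in MM.1S, 16 of the 23 in MM.1R and 16 of the 26 in INA-6 held in every alternative, and those that held least often were GBP1 in INA-6 (3 of 20), HERC5 in MM.1R (6 of 21) and MM.1S (12 of 21), IFI44 in INA-6 (10 of 20) and PARP9 in MM.1R (12 of 21).

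**Figure D2:**
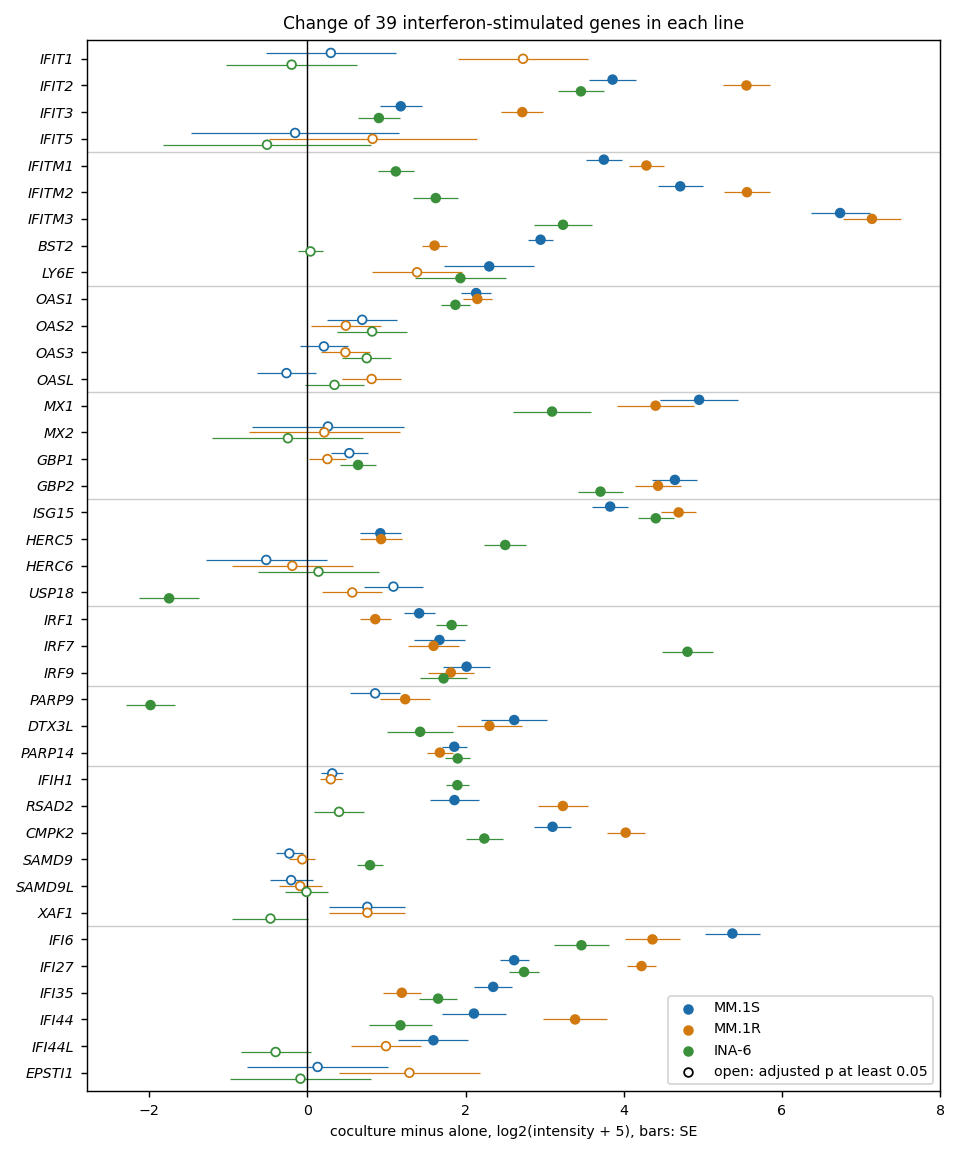
Coculture minus alone in MM.1S (blue), MM.1R (orange) and INA-6 (green) for each of the 39 members (rows, grouped by role), on the log2(intensity + 5) scale with SE bars, filled where the limma adjusted p within the line is under 0.05. Most rows lie to the right of 0 in all 3 colours, IFITM3 reaches 7.14 in MM.1R, and the green points of USP18 and PARP9 lie at -1.75 and -1.99.

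The membrane restriction factors held the largest rise. IFITM3 read 2.01 and 5.49 in MM.1S alone and 925 and 893 after coculture, 15.4 and 3.60 against 1924 and 1805 in MM.1R, and 89.3 and 81.9 against 858 and 833 in INA-6. Every coculture array of each line was above every array of the same line alone, and the difference over the 3 lines was 5.70 (SE 0.74, adjusted p = 0.0104). Because the MM.1 values alone lay below the array median, the size of this rise depends on the constant added before the logarithm. IFITM2 rose by 3.96 (SE 0.72, adjusted p = 0.0351) and IFITM1 by 3.05 (SE 0.63, adjusted p = 0.0479). After coculture IFITM1 read 289.8 and 299 in MM.1S, 425 and 424 in MM.1R and 1347 and 1433 in INA-6, so INA-6 stayed highest. The IFITM genes are close relatives and lie next to each other, and their probe sets may share signal, so the 3 differences are not separate readings. LY6E had a difference of 1.87 with an adjusted p of 0.05004, just outside the threshold.

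BST2 behaved differently by line. It went from 270 and 289.8 to 2220 and 2160 in MM.1S (2.95, SE 0.15) and from 755 and 771 to 2297 and 2373 in MM.1R (1.61, SE 0.15). In INA-6 it read 1912 and 1550 alone and 1802 and 1734 after coculture (0.04, adjusted p = 0.855). The 3 lines ended within 1734 to 2373 after starting between 270 and 1912, and the INA-6 groups overlapped.

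ISG15, a small protein attached to other proteins like ubiquitin, rose in each line. It read 31.9 and 25.6 in MM.1S alone and 483 and 461 after coculture, 28.8 and 29.5 against 897 and 859 in MM.1R, and 22.4 and 12.2 against 457 and 452 in INA-6. The groups did not overlap in any line, and the difference was 4.31 (SE 0.39, adjusted p = 0.00277). The difference within lines lay between 3.83 and 4.69, and the test for a difference between lines did not pass. HERC5 rose by 0.92 in MM.1S, 0.93 in MM.1R and 2.50 in INA-6, where it went from 20.7 and 41.9 to 184 and 199. USP18, the protease that removes ISG15 and dampens the type I receptor, fell in INA-6 from 48.6 and 54.9 to 17.9 and 7.39 (-1.75, SE 0.38, adjusted p = 0.00537). In the MM.1 lines both coculture arrays lay above both arrays of cells alone, opposite to INA-6, but neither difference passed. USP18 read 4.04 and 11.3 in MM.1S alone and 26.1 and 16.4 after coculture (1.09, adjusted p = 0.0603), and 10.9 and 15.2 against 23.2 and 19.9 in MM.1R (0.57, adjusted p = 0.415), mostly below the array median. HERC6, a relative of HERC5 next to it, passed in no line on the probe set in use, which was above the array median on 2 arrays. Its other probe set, above it on 3 arrays and not put through the test, had 1.59, 1.415 and 0.19 in MM.1S, MM.1R and INA-6.

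Of the IFIT genes, which bind viral RNA and lie side by side, IFIT2 rose and IFIT5 did not pass. IFIT2 read 4.88 and 5.49 in MM.1S alone and 143 and 142 after coculture, 1 and 4.19 against 342 and 344 in MM.1R, and 6.34 and 1.34 against 82.9 and 93.8 in INA-6. The groups did not overlap, all arrays of cells alone were below the median, and the difference was 4.29 (SE 0.50, adjusted p = 0.00621). Its second tested probe set had 0.42, 0.60 and -0.27 in MM.1S, MM.1R and INA-6, and with both averaged the difference was 2.27 (adjusted p = 0.0287). IFIT3 rose by 1.18, 2.72 and 0.90 in MM.1S, MM.1R and INA-6, and its second probe set, which was not put through the test, averaged 3.45 over the lines. IFIT1 read 216 and 60.7 in MM.1S alone and 161 and 127 after coculture, and 173 and 43.8 against 114 and 50.3 in INA-6. In MM.1R it read 17.3 and 57.8 alone and 193 and 305 after coculture, without overlap (2.73, adjusted p = 0.0615), and over the lines the difference was 0.94 (adjusted p = 0.373). IFIT5 had differences of -0.16, 0.82 and -0.51, and its INA-6 duplicates alone read 1.24 and 187. Both IFIT1 and IFIT5 carry the ISRE core printed above.

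The oligoadenylate synthetases sense double-stranded RNA and make short adenylate chains from ATP, and OAS1 rose while the other members did not pass. OAS1 read 192 and 181.5 in MM.1S alone and 892 and 783 after coculture, 187 and 200.3 against 796 and 962 in MM.1R, and 203 and 154 against 675 and 649 in INA-6. On this probe set the 3 lines began between 154 and 203 and ended between 649 and 962, without overlap, a difference of 2.05 (SE 0.37, adjusted p = 0.0351). Its second tested probe set read 153 and 96.1 in INA-6 alone against 9.15 to 15.7 in the MM.1 lines alone. The differences on it were 4.38 in MM.1S, 4.06 in MM.1R and 2.06 in INA-6. With both averaged, OAS1 passed for INA-6 against the MM.1 lines alone and for a difference between lines. OAS3 had a difference of 0.48 (adjusted p = 0.463) and OASL, which lacks synthetase activity, of 0.30 (adjusted p = 0.672). OAS2 had 0.66 (adjusted p = 0.320) on the probe set in use, and its other probe sets gave 2.91 and -0.64.

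Among the interferon-induced GTPases, MX1 and GBP2 rose, and their relatives MX2 and GBP1 did not pass over the 3 lines. MX1, which traps viral ribonucleoproteins, read 16.1 and 16.4 in MM.1S alone and 669 and 639 after coculture, 17.4 and 25.6 against 533 and 564 in MM.1R, and 93.1 and 22.9 against 417 and 468 in INA-6. The difference was 4.15 (SE 0.47, adjusted p = 0.00568), with no overlap in any line. GBP2 read 20.1 and 15.8 against 599 and 539 in MM.1S, 24.5 and 26.6 against 605 and 709 in MM.1R, and 30.8 and 13.8 against 331 and 335.5 in INA-6. Its difference was 4.26 (SE 0.40, adjusted p = 0.00277). MX2 had a difference of 0.07 (adjusted p = 0.917), with INA-6 duplicates alone of 3.59 and 100.1. GBP1 had 0.47 (adjusted p = 0.464) and was already at 258 to 387 in the MM.1 lines alone. Its other tested probe sets had differences of 1.45 and 1.17 in MM.1S, 0.75 and 0.60 in MM.1R and 0.39 and 0.08 in INA-6. These did not enter the limma test, in which the probe set in use had 0.64 in INA-6 (adjusted p = 0.0475).

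**Figure D3:**
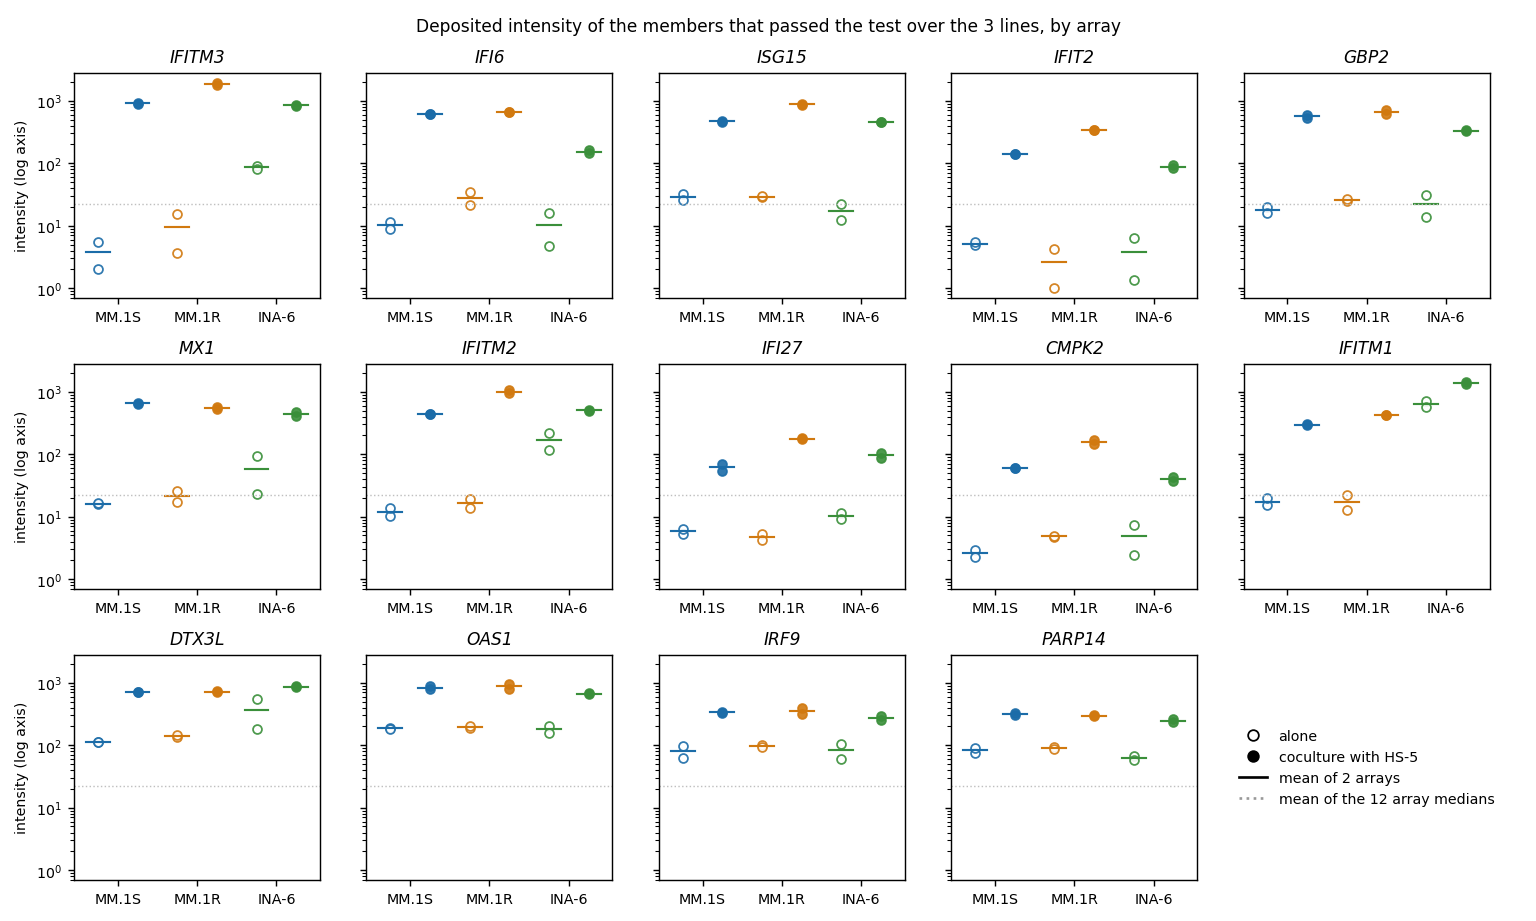
Deposited intensity on each array (vertical log axis) of the 14 members that passed the test over the 3 lines, by line (blue MM.1S, orange MM.1R, green INA-6), with open points for cells alone, filled points for coculture and a bar at the mean of each pair; the dotted line is the mean of the array medians. In each of these panels the filled points of a line lie above its open points, and the open points of IFITM1 in INA-6, 711 and 572, lie above the filled points of both MM.1 lines.

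The 3 measured transcription factors all rose within each line. IRF9, the DNA-binding subunit of the ISRE complex, read 63.3 and 98.6 in MM.1S alone and 343 and 326 after coculture, 100.6 and 94.8 against 396 and 320 in MM.1R, and 59.4 and 105 against 257 and 289.9 in INA-6. It was the one of the 3 to pass over the lines, with 1.85 (SE 0.37, adjusted p = 0.0457). IRF7 went in INA-6 from 10.1 and 26.2 to 595 and 608, a difference of 4.81, against 1.67 in MM.1S and 1.60 in MM.1R. The 3 lines ended between 595 and 800 although INA-6 had begun far below the others. IRF1, which is also a target of interferon gamma, rose by 1.41, 0.86 and 1.82.

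PARP9, DTX3L and PARP14 are ADP-ribosylation factors of the interferon response, and PARP9 and DTX3L form a complex and start next to each other on opposite strands. A RefSeq window of each shares 137 bases with the other, and the same ISRE core at chr3:122564332-122564341 lies in both. DTX3L read 111 and 113 in MM.1S alone and 711 and 711 after coculture, 136 and 148 against 736 and 703 in MM.1R, and 554 and 184 against 881 and 855 in INA-6. It rose by 2.11 (SE 0.41, adjusted p = 0.0424), without overlap in any line. PARP9 on the probe set in use read 90.6 and 73.0 against 152 and 151 in MM.1S and 54.3 and 57.2 against 131 and 145 in MM.1R, but 258 and 554 against 90.8 and 92.8 in INA-6. Its other probe set read 45.2 and 39.5 in INA-6 alone and 136 and 175 after coculture, and averaged 2.98 higher over the 3 lines, so the fall in INA-6 was seen on 1 of its 2 probe sets. PARP14 rose by 1.81 (SE 0.37, adjusted p = 0.0478), with a within-line range of 1.67 to 1.90, while its other probe set, above the array median on 3 arrays, averaged -0.99.

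Some of the sensors and other antiviral effectors differed by line on the probe set in use. CMPK2, a mitochondrial nucleotide kinase, read 2.92 and 2.29 in MM.1S alone and 59.2 and 61.0 after coculture, 4.80 and 4.93 against 167 and 145 in MM.1R, and 7.38 and 2.42 against 37.6 and 42.9 in INA-6. It rose by 3.12 (SE 0.45, adjusted p = 0.0166). RSAD2, or viperin, lies beside CMPK2 and makes a chain-terminating nucleotide from CTP. It rose by 1.86 in MM.1S and 3.23 in MM.1R, and in INA-6 it read 44.0 and 20.4 alone and 43.9 and 39.4 after coculture (0.40, adjusted p = 0.319). Its second probe set had 0.90 in MM.1S, 1.72 in MM.1R and 1.57 in INA-6, where it went from 14.7 and 2.90 to 36.9 and 27.8, so the low INA-6 value was seen on 1 of 2 probe sets. IFIH1 rose in INA-6, from 23.1 and 26.8 to 108 and 105 (1.90, SE 0.14), and had 0.31 and 0.29 in the MM.1 lines, which were already at 328 to 359. Its other tested probe sets had 0.23 and 0.05 in INA-6, where all their readings lay below the array median. With all its probe sets averaged, the limma test in INA-6 did not pass (adjusted p = 0.113). SAMD9, an antiviral factor, rose in INA-6 by 0.79 on the probe set in use. Its other probe set, not put through the test, had 1.57 in MM.1S, 1.30 in MM.1R and 1.10 in INA-6. SAMD9L, its relative, passed in no line on the probe set in use. The other SAMD9L probe sets, not put through the test, went opposite ways. In INA-6 1 of them went from 22.7 and 68.1 to 174 and 188 (2.04). In MM.1S another went from 800 and 825 to 287 and 271 (-1.53). XAF1, an apoptosis-associated protein, had 0.76, 0.76 and -0.47 without passing.

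In the IFI group, IFI6 and IFI27, both small mitochondrial or endoplasmic reticulum proteins, passed over the lines. IFI6 read 11.6 and 8.77 in MM.1S alone and 617 and 625 after coculture, 34.4 and 21.8 against 670.0 and 657 in MM.1R, and 15.8 and 4.77 against 144 and 161 in INA-6, a difference of 4.40 (SE 0.47, adjusted p = 0.00431). After coculture INA-6 thus stood below both MM.1 lines. IFI27 read 5.38 and 6.35 against 54.0 and 69.9 in MM.1S, 5.23 and 4.19 against 173 and 180.1 in MM.1R, and 11.3 and 9.12 against 87.8 and 106 in INA-6, a difference of 3.19 (SE 0.46, adjusted p = 0.0155). MM.1R ended highest for this gene. IFI44 had 2.22 (adjusted p = 0.0594) and IFI35 1.73 (adjusted p = 0.0663), and both rose within each line. IFI44L, next to IFI44, rose in MM.1S by 1.59 and stayed below the array median in INA-6. EPSTI1 passed in no line on its probe set in use.

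The size of the response differed between lines for 17 of 39 members by the limma F-test, a share not far above the 35.7% of all genes. They were IFIT2, IFIT3, IFITM1, IFITM2, IFITM3, BST2, HERC5, USP18, IRF7, PARP9, IFIH1, RSAD2, CMPK2, SAMD9, IFI6, IFI27 and IFI44. Among the members tested for INA-6 minus the mean of the MM.1 lines, 14 had a lower response in INA-6 (14.3% of all genes) and 4 a higher one (24.9%), with a median of -0.80 against 0.18 for all genes. The 4 were IRF7 (3.17), IFIH1 (1.59), HERC5 (1.57) and SAMD9 (0.94), each of which was lower in INA-6 alone on the probe set in use. Baseline and response share the arrays of cells alone, so the pair is not independent. The strongest differences the other way were IFITM3 (-3.71), IFITM2 (-3.51), PARP9 (-3.03) and IFITM1 (-2.90). The sizes for the IFITM genes rest on MM.1 arrays of cells alone near or below the array median and so on the constant added. That for PARP9 rests on 1 of its 2 probe sets, as do those for SAMD9 and RSAD2, and that for IFIH1 rests on 1 of 3. On its other probe set SAMD9 had 1.57 in MM.1S, 1.30 in MM.1R and 1.10 in INA-6. Its arrays of cells alone overlapped there between INA-6 and the MM.1 lines. Between MM.1R and MM.1S 2 members differed in response: BST2 rose less in MM.1R by -1.34 (1.89% of all genes were lower) and IFI27 rose more by 1.61 (0.565% were higher). The RNA integrity ratio and the stromal marker level, given above, also moved differently between INA-6 and the MM.1 lines.

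For 19 members several probe sets were tested, and the readings of a gene did not always go together. By the mean over the 3 lines, the probe set not in use was higher for OAS2 (2.91), PARP9 (2.98), EPSTI1 (2.30), XAF1 (1.85) and SAMD9 (1.32), whose probe sets in use lay between 0.04 and 0.66. EPSTI1, a stroma-induced epithelial protein, read 19.4 and 28.7 in MM.1S alone and 193 and 204 after coculture on that second probe set. OAS2 read 13.6 and 11.9 against 183 and 180 in MM.1S on its second one. In all, 8 members had 1 probe set at least 2-fold higher in each of the 3 lines and another that was not: EPSTI1, IFI44, IFIT2, IFIT3, OAS2, PARP14, PARP9 and SAMD9. It was the probe set in use for IFI44, IFIT2 and PARP14. These readings were not put through the test, which used 1 probe set per gene.

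**Figure D4:**
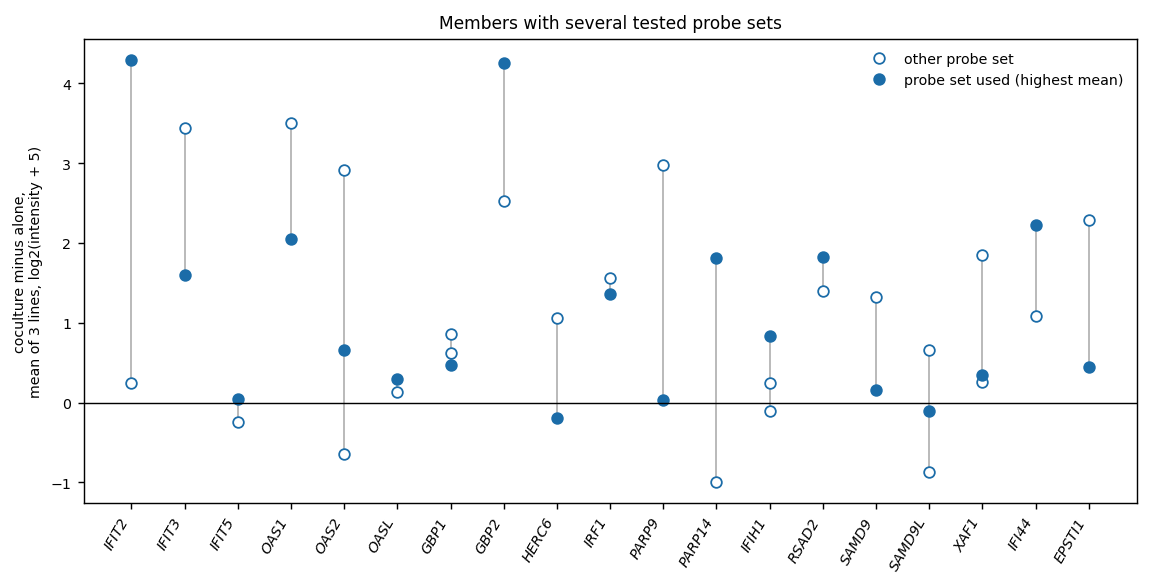
Mean of the coculture minus alone differences of the 3 lines on the log2(intensity + 5) scale (vertical axis) for each tested probe set of the 19 members that have several, with the probe set in use filled and the others open. The open points of OAS2, PARP9 and EPSTI1 reach 2.91, 2.98 and 2.30, far above the filled points of the same genes, while for IFIT2 the filled point is the higher one at 4.29.

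Of 73 other interferon pathway genes listed, 56 were tested, and 1 of them, PLSCR1, rose over the 3 lines and 0 fell by limma, against 3.28% and 0.106% of all genes. At an unadjusted p under 0.05 there were 14 (25%, against 22.5% of all genes), so the pathway genes were near the background. PLSCR1, a phospholipid scramblase with antiviral activity, read 54.6 and 46.2 in MM.1S alone and 496 and 446 after coculture, 92.9 and 105 against 581 and 570.0 in MM.1R, and 99.2 and 16.4 against 130.0 and 159 in INA-6 (2.41, SE 0.43, adjusted p = 0.0334). Within lines 19 rose and 3 fell in MM.1S, 13 and 2 in MM.1R, and 26 and 8 in INA-6. The shares of all genes were 23.9% and 8.33%, 13.3% and 2.76%, and 39.1% and 13.1%. The median of the pathway genes over the 3 lines was 0.58. By role, over the same fit, none of 6 receptor chains, 3 kinases, 4 other transcription factors, 12 sensing genes and 5 feedback genes passed.

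The receptor chains differed by line. IFNGR1, the ligand-binding chain for interferon gamma, read 43.2 and 103 in MM.1S alone and 455 and 433 after coculture, 132.8 and 116 against 506 and 486 in MM.1R, and 419 and 230.1 against 276 and 287 in INA-6. It rose in both MM.1 lines, by 2.64 and 1.96, and its INA-6 groups overlapped. IL10RB, shared by the interleukin 10 and interferon lambda receptors, rose in the same lines by 3.35 and 1.86. IFNGR2 rose by 1.55 in MM.1S and 1.73 in INA-6. IFNAR1 and IFNAR2, the type I receptor, rose in MM.1S by 0.88 and 0.77 and passed in no other line, and IFNLR1 rose in INA-6 by 0.77.

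The interferons themselves gave low readings. Of 9 ligand genes with a probe set, 1, IFNL1, met the filter, and no ligand read above 23.01 on any coculture array. The highest reading on any array was 129 for IFNL1 on 1 of the 2 arrays of INA-6 alone, whose duplicate read 13.4. IFNB1, the early type I interferon, read at most 18.9 on any of the 12 arrays. No array of HS-5 on its own was analysed here.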

How the data were processed

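The authors deposited 1 intensity per probe set and array on a linear scale, and no raw scans were used here. The submitters' processing notes name MAS5 and give no version, while the series' design text, part of the deposited labels, describes dChip modelling, so the method is not settled. Of all values, 3.26% equal 1. Intensities were taken to log2 after adding 5. A probe set is called tested if above its array's median on at least 2 of 12 arrays. Each gene entered the tests on 1 probe set, whichever of its tested probe sets averaged highest. Probe sets with several gene symbols were left out.

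Limma 3.58.1 in R 4.3.3 was used for all tests, two-sided, with Benjamini-Hochberg adjustment over 15052 genes. Over the lines, 6 averaged values were fitted with the line as a block (2 residual degrees of freedom). Within lines, at baseline and between lines, 12 arrays were fitted with a mean per group (6 residual degrees of freedom), so those p-values cover only the spread between technical duplicates. The fits were tested on simulated data. Precision is limited by the number of arrays, and an array has no read depth.

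All members are accounted for. Pathway genes are counted by role, and named are the receptor chains, those that passed over the lines and single ligands. Of the markers, the largest and smallest changes are named. The members, the gene lists and the alternatives were chosen with earlier results of these data known, except that a fit without all INA-6 arrays was added after seeing the data. Promoter windows and gene positions are from RefSeq, build GRCh38.p14. The deviations of same-numbered arrays of different groups correlated at between -0.529 and 0.581, with 6 of 15 above 0.1. They had no common sign, so the numbers were not used as pairs in the main fits.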

Additional observations from a re-analysis of the deposited data

Results flagged for a closer look

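For 17 of 39 members the effect of coculture differed between the lines by the limma F-test, a share not far above the 35.7% of all genes. The value is the effect in INA-6 minus the mean effect in MM.1S and MM.1R, in log2 units. It was negative for the membrane factors IFITM3 (-3.71), IFITM2 (-3.51), IFITM1 (-2.90) and BST2 (-2.24). It was also negative for PARP9 (-3.03), USP18 (-2.58), RSAD2 (-2.15), IFI44 (-1.57), IFI6 (-1.40), CMPK2 (-1.33), IFIT2 (-1.25), IFIT3 (-1.04) and IFI27 (-0.68). It was positive for IRF7 (3.17), IFIH1 (1.59), HERC5 (1.57) and SAMD9 (0.94). These values use 1 probe set per gene. On its other tested probe set SAMD9 had 1.57 in MM.1S, 1.30 in MM.1R and 1.10 in INA-6. The other tested probe sets of IFIH1 had 0.23 and 0.05 in INA-6. RSAD2 had 0.90 in MM.1S, 1.72 in MM.1R and 1.57 in INA-6 on its other probe set, so INA-6 was not lowest there. On the other probe set of PARP9, IFIT2, IFIT3 and IFI44, INA-6 again had the lowest difference of the 3 lines. For PARP9 that difference was 1.76 and not a fall. Each line is represented by duplicate arrays of a single sample per condition, so the differences between lines are between samples.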

How the results depend on the processing

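The count of members that rose over the 3 lines, 14, was 8 after quantile normalization, 24 with the 12 arrays not averaged, 24 with that and a replicate block, and 26 without INA-6. Over all genes the calls in either direction went from 510 to 240, 5084, 4635 and 3660 under these settings, in the same direction as the members. Unaveraged arrays count technical duplicates as replicates. Quantile normalization moved the median of all genes from 0.265 to 0.0184, and the number of members at least 2-fold higher in all 3 lines from 18 to 12. The 2 members higher in MM.1R than in MM.1S alone became 1 with arrays centred on the median, 1 with no filter on low values, 1 with a replicate block and 8 without all INA-6 arrays, a setting added after seeing the data. With each array left out in turn, the counts ranged from 10 to 16 over the 3 lines, 20 to 28 in MM.1S, 17 to 26 in MM.1R, 21 to 30 in INA-6, 13 to 24 for a difference between lines, 1 to 7 for MM.1R against MM.1S alone, 17 to 24 for INA-6 against the MM.1 lines alone, and 16 to 18 for 2-fold in all lines. The upper value of 7 came from leaving out either array of INA-6 alone. The replicate block gave 24, 22 and 25 members in MM.1S, MM.1R and INA-6. For the counts with an array left out, and for the within-line and baseline counts, the calls over all genes under each setting are not given. A change in these counts therefore cannot be assigned to the members rather than to all genes. Reversals to a call occurred for SAMD9 in MM.1S (0.67) and MM.1R (0.62) and for SAMD9L in INA-6 (0.61) with all probe sets averaged, and with either array of INA-6 alone left out, where the INA-6 difference ranged from -0.48 to 0.46 for SAMD9L, from -2.98 to 1.96 for IFIT5 and from -2.05 to 1.56 for MX2. The cause was not tested. Precision is limited by 2 arrays per group, and signals below the array median cannot be told from background here.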
